A study of Danio rerio with 4 samples.

Results

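The 6 genes described here are the protein-coding genes of the zebrafish mitochondrial genome that do not encode complex I subunits: *mt-cyb* of complex III, *mt-co1*, *mt-co2* and *mt-co3* of complex IV, and *mt-atp6* and *mt-atp8* of complex V (the ATP synthase). They were chosen by gene symbol, case ignored, as 6 of the 28290 gene models in the count table, and all 6 were counted in every library and passed the low-count filter. Whole wild-type embryos of the zebrafish, *Danio rerio*, gave 4 libraries. Untreated embryos gave 2 of them, and the other 2 were from embryos kept in 8 µg/L SYP-3343 (the code name of a compound). The window, between 3 and 24 hours post-fertilization (hpf), was the same for all 4 libraries, controls included. The design text speaks of 40 embryos without saying whether they stand for a library or a group. Nothing in the labels says that the libraries labelled biological replicates came from separate clutches, so p-values measure only the spread between these samples. The series title asks about developmental toxicity through reactive oxygen species and mitochondrial dysfunction.

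Complex III passes electrons from ubiquinol to cytochrome c, complex IV passes them on to oxygen, and complex V uses the resulting proton gradient to make ATP. Each of these complexes is built from many nuclear-encoded subunits around a few made inside the mitochondrion. In vertebrates the mitochondrial genes are transcribed as long polycistronic RNAs that are cut into separate messengers, mostly at the tRNAs lying between the genes. The *mt-atp8* and *mt-atp6* reading frames overlap and, in mammals, stay together on one bicistronic messenger.

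In exposed embryos the counts of both ATP synthase genes fell, those of *mt-co1* and *mt-co2* of complex IV rose, and *mt-co3* and *mt-cyb* did not pass the test. The fall of *mt-atp8* was 1.75-fold and that of *mt-atp6* 1.68-fold, while *mt-co1* rose 1.49-fold and *mt-co2* 1.31-fold. Of the 6 genes, 2 were therefore called higher and 2 lower, with edgeR's quasi-likelihood test and TMM scaling. The 2 lower genes overlap, so their falls are not separate results. Whether they share a messenger in these embryos was not tested. Over all 22647 genes tested, 31.9% were called in either direction, 16.6% higher and 15.3% lower. The falls kept their call in each of the 16 alternatives run, the rise of *mt-co1* in 13 and that of *mt-co2* in 8. The 16 include a scaling to the 13 mitochondrial protein-coding genes, which is not independent of the genes tested. The 3 lost calls of *mt-co1* included those without control replicate 1 (adjusted p = 0.224) or without control replicate 2 (adjusted p = 0.361).

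Library totals ran from 46165614 to 59054470 counts in the controls and from 49075203 to 49962016 in SYP-3343. The 6 genes together took 2.23% and 2.09% of these counts in the controls and 1.97% and 2.04% in SYP-3343. The TMM factors, which correct library sizes for differences in composition, were above 1 in both controls (1.108 and 1.138) and below 1 in both SYP-3343 libraries (0.923 and 0.86). With TMM the median log2 fold change of all tested genes was -0.01, and with library size alone it was -0.35. Under library size alone, 1 of the 6 genes was called higher and 3 lower, beside 6.21% and 41.4% of all tested genes. Levels below are TMM-scaled CPM, that is counts scaled to a common library total, unless library size is named, log2 fold changes are SYP-3343 minus control ± SE, and means are ± SD with n = 2 libraries per group. With TMM the 6 genes summed to 20171 and 18358 CPM in the controls and to 21398 and 23676 CPM in SYP-3343. The direction of their sum thus depended on the scaling. The counts come from bulk RNA, in which fewer cells of a type and less RNA per cell cannot be told apart. The RNA was selected on poly-T beads, so the counts can also depend on poly-A tails, which was not tested.

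**Figure D1:**
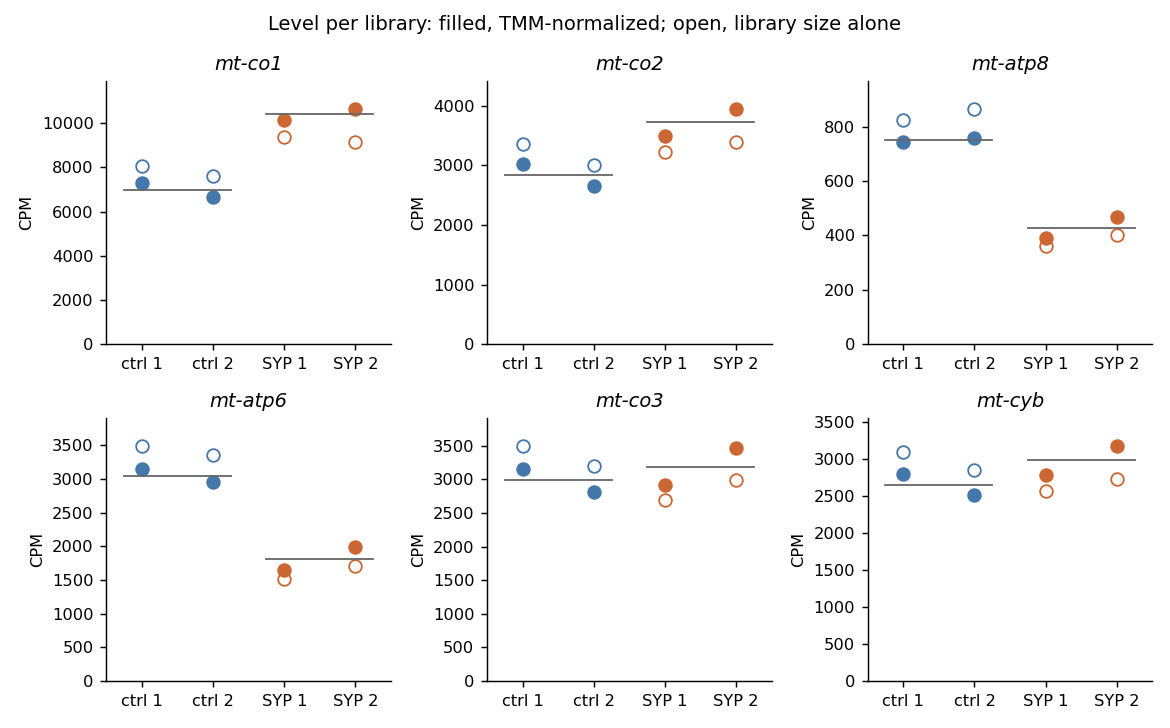
Level (CPM) of each of the 6 genes in each library, with filled points for TMM scaling, open points for library size alone and lines for the group means of the TMM values. *mt-atp8* and *mt-atp6* were lower in both SYP-3343 libraries than in both controls on both scales, and *mt-co1* was higher on both.

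*mt-atp6* encodes the subunit of the ATP synthase that forms the proton path through the inner membrane with the rotating c-ring. Its level was 3152 and 2951 CPM in control replicates 1 and 2, and 1643 and 1987 CPM in SYP-3343 replicates 1 and 2. Both exposed libraries lay below both controls. Arbitrary labels would leave 2 groups of 2 libraries without overlap, in either direction, with a probability of 0.333. The group means were 3052 ± 142 and 1815 ± 243 CPM, and the log2 fold change was -0.75 ± 0.14 (edgeR adjusted p = 0.000267). Among all tested genes, 8.17% had a log2 fold change as low or lower.

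*mt-atp8* encodes a small membrane subunit next to *mt-atp6* in the stator of the same enzyme. It stood at 743 and 759 CPM in control replicates 1 and 2, and at 391 and 466 CPM in SYP-3343 replicates 1 and 2. The gap between the groups was wider than the spread within either one. The means were 751 ± 11.6 and 429 ± 53.4 CPM, with a log2 fold change of -0.81 ± 0.11 (edgeR adjusted p = 7.19e-06).

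The ratio of the counts of the 2 ATP synthase genes was compared within each library. There were 0.236 and 0.257 *mt-atp8* counts per *mt-atp6* count in the controls, and 0.238 and 0.235 in SYP-3343. The log2 ratio was -2.02 ± 0.0897 in controls and -2.08 ± 0.0136 in SYP-3343, a difference of -0.06 (exact permutation p = 0.667, two-sided, n = 2 per group). With 2 libraries against 2 this test cannot go below 0.333, so it does not show that the ratio was the same. Leaving out 1 library at a time gave differences from -0.12 to 0.0039. The genes overlap in the RefSeq annotation of the assembly GRCz12tu, as do *mt-atp6* and *mt-co3*. The sources used here do not say how reads covering 2 genes were assigned, so the counts of these neighbours are not fully separate.

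*mt-co1* encodes the catalytic subunit of cytochrome c oxidase, where oxygen is reduced. It had 7293 and 6681 CPM in control replicates 1 and 2, and 10168 and 10634 CPM in SYP-3343 replicates 1 and 2. The exposed libraries were both above the controls. The means were 6987 ± 433 and 10401 ± 329 CPM, and the log2 fold change was 0.57 ± 0.18 (edgeR adjusted p = 0.0157). Without any scaling factors its log2 fold change was 0.24 ± 0.075 (edgeR adjusted p = 0.0142), above 0 while the median of all genes was below it.

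*mt-co2* encodes the subunit that takes electrons from cytochrome c. Its level was 3029 and 2649 CPM in control replicates 1 and 2, and 3503 and 3944 CPM in SYP-3343 replicates 1 and 2. The groups did not overlap on this scale, but did with library size alone, at 3355 and 3014 CPM against 3233 and 3391 CPM. The log2 fold change was 0.39 ± 0.14 (edgeR adjusted p = 0.0438) with TMM and 0.06 ± 0.08 (edgeR adjusted p = 0.584) with library size alone. Its call held in 8 of 16 alternatives. It ended without control replicate 1 (0.49, adjusted p = 0.16), control replicate 2 (0.30, adjusted p = 0.444) or SYP-3343 replicate 2 (0.30, adjusted p = 0.204). It also ended with RLE factors (adjusted p = 0.0513), upper-quartile factors (adjusted p = 0.0886) and a filter of CPM of at least 1 in 2 libraries (adjusted p = 0.0619).

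*mt-co3* encodes the third core subunit of complex IV, which carries no redox centre. Its level was 3159 and 2812 CPM in control replicates 1 and 2, and 2911 and 3472 CPM in SYP-3343 replicates 1 and 2. The groups overlapped. The log2 fold change was 0.10 ± 0.15 (95% interval -0.21 to 0.40, edgeR adjusted p = 0.657). With library size alone the sign turned, and the gene was called lower (-0.24 ± 0.082, edgeR adjusted p = 0.0237).

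*mt-cyb* encodes cytochrome b, the one subunit of complex III made in the mitochondrion, which holds both quinone-binding sites of the complex. It had 2796 and 2506 CPM in control replicates 1 and 2, and 2782 and 3172 CPM in SYP-3343 replicates 1 and 2. The groups overlapped here too. The log2 fold change was 0.17 ± 0.14 (95% interval -0.12 to 0.46, edgeR adjusted p = 0.394), and it was -0.17 ± 0.079 with library size alone, again not called (edgeR adjusted p = 0.0901).

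The direction of *mt-co3* and *mt-cyb* thus depended on the scaling. Each gene was also expressed as a share of the summed counts of the 13 mitochondrial protein-coding genes, which needs no scaling between libraries. *mt-co1* took 27.4% and 27.6% of these counts in the controls and 39.0% and 36.6% in SYP-3343. The share of *mt-co2* went from 11.4% and 10.9% to 13.4% and 13.6%. In the other direction, *mt-atp6* held 11.9% and 12.2% in the controls and 6.31% and 6.84% in SYP-3343, and *mt-atp8* held 2.79% and 3.13% against 1.5% and 1.6%. For these 4 genes the groups did not overlap, and the same held for *mt-cyb* below. How often groups did not overlap over all tested genes was not counted, so the lack of overlap does not set these genes apart.

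The mean shares of the remaining pair differed by less than 1 percentage point between the groups. *mt-co3* had 11.9% and 11.6% in the controls against 11.2% and 11.9% in SYP-3343, with overlapping groups. *mt-cyb* had 10.5% and 10.3% against 10.7% and 10.9%, a difference of 0.371 percentage points, without overlap. The exact permutation p over the 4 libraries was 0.333, the smallest possible, for each of the 6 genes except *mt-co3* (exact permutation p = 1). A share is a part of a fixed whole, so the larger share of *mt-co1* in itself lowers the shares of the other genes.

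**Figure D2:**
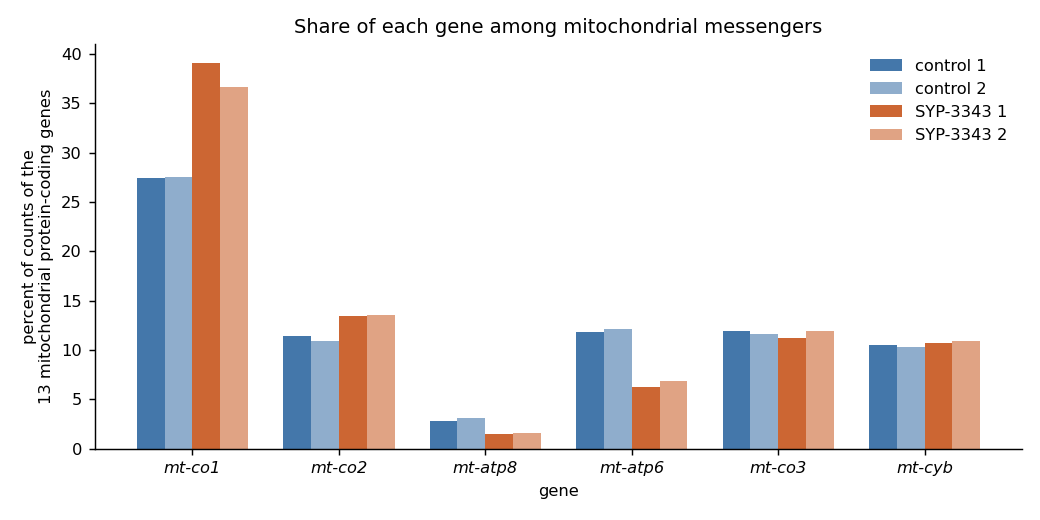
Share of each gene in the counts of the 13 mitochondrial protein-coding genes, in percent, with 1 bar per library. *mt-co1* held 27.4% and 27.6% in the controls against 39.0% and 36.6% in SYP-3343, while the shares of *mt-atp6* and *mt-atp8* were lower in both SYP-3343 libraries.

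When the whole table was scaled to the summed counts of the 13 mitochondrial genes and refitted, the same 4 genes were called in the same directions. Of all tested genes 9.12% were then called higher and 17.1% lower. Relative to the mitochondrial messengers, *mt-co1* rose by 0.46 ± 0.051 (edgeR adjusted p = 1.37e-14) and *mt-co2* by 0.28 ± 0.064 (edgeR adjusted p = 0.000298). *mt-atp6* was at -0.87 ± 0.069 (edgeR adjusted p = 9.87e-25) and *mt-atp8* at -0.93 ± 0.093 (edgeR adjusted p = 2.96e-17). The intervals of *mt-co3* (-0.15 to 0.11) and *mt-cyb* (-0.08 to 0.18) both included 0. All of these genes are part of the sum used for scaling, so variation between libraries that they share is removed. A higher *mt-co1* count also lowers the other genes in itself. The adjusted p-values of this fit therefore describe spread relative to that sum, not the spread of levels between samples. The fit is not a separate test of the calls.

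Along the genome, *mt-co2*, which was called higher with TMM, lies next to *mt-atp8*, which fell. The call of *mt-co2* held in 8 of 16 alternatives, and *mt-co3*, next to *mt-atp6*, was not called. In the RefSeq order (assembly GRCz12tu) *mt-co1* and *mt-co2* are followed by *mt-atp8*, *mt-atp6* and *mt-co3*, all read in the same direction. The library counts gave 0.245 and 0.287 *mt-atp8* counts per *mt-co2* count in the controls, and 0.112 and 0.118 in SYP-3343. On the other side, there were 0.998 and 1.05 *mt-atp6* counts per *mt-co3* count in the controls, and 0.564 and 0.572 in SYP-3343. Each exposed library was thus below each control for both ratios. The log2 differences were -1.21 for *mt-atp8* to *mt-co2* and -0.85 for *mt-atp6* to *mt-co3* (exact permutation p = 0.333 for each, the smallest possible).

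Within complex IV the 3 messengers also shifted against each other. Per *mt-co1* count there were 0.415 and 0.396 *mt-co2* counts in the controls and 0.345 and 0.371 in SYP-3343. For *mt-co3* the ratios to *mt-co1* were 0.433 and 0.421 against 0.286 and 0.327. The log2 ratio to *mt-co1* thus differed by -0.18 for *mt-co2*, by -0.48 for *mt-co3* and by -0.41 for *mt-cyb*. It differed by -1.33 for *mt-atp6* and by -1.39 for *mt-atp8*, and the groups did not overlap for any of these 5 ratios (exact permutation p = 0.333 for each). All 5 are divided by the *mt-co1* count, so a higher *mt-co1* in itself lowers each, and they are not separate results.

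**Figure D3:**
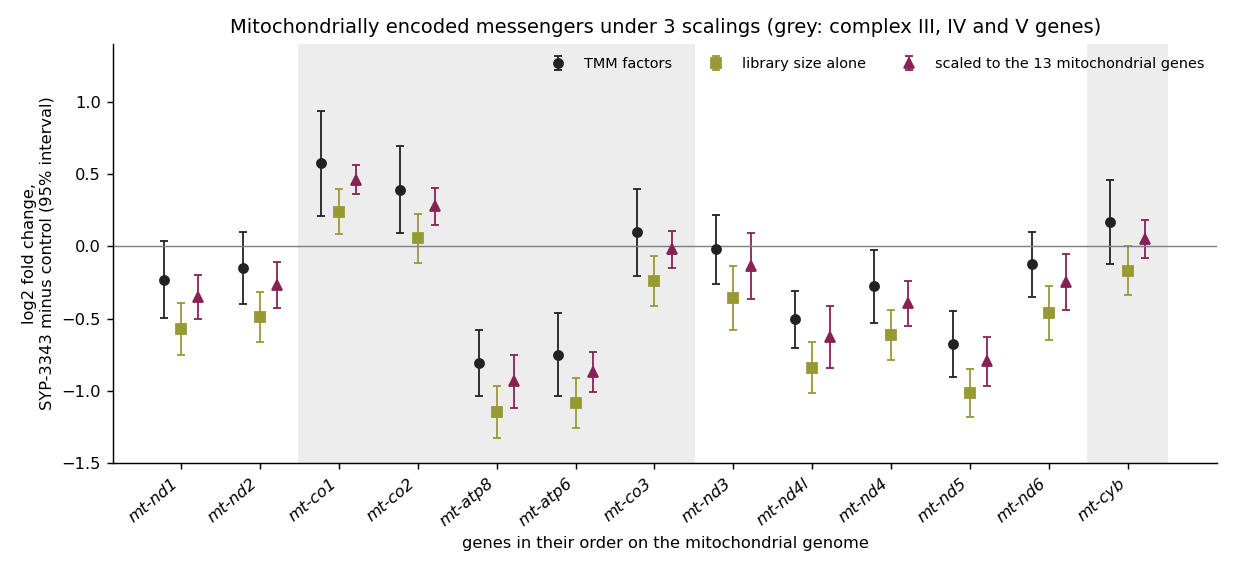
Log2 fold change with its 95% interval for the 13 mitochondrial protein-coding genes in genome order, under TMM factors, library size alone and scaling to the 13 genes, with the 6 genes of complexes III, IV and V on grey. *mt-atp8* and *mt-atp6* lay below 0 and *mt-co1* above 0 under all 3 scalings, while *mt-co3* and *mt-cyb* changed sign between them.

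The 7 complex I genes of the same genome, the ND genes, all had log2 fold changes below 0. Of the 6 genes 2 were below 0, as were 51.3% of all tested genes. The ND genes ranged from -0.68 to -0.02, with 2 of 7 called lower, 0 higher and 5 not called, beside 15.3% of all tested genes called lower. With library size alone 7 of 7 were called lower, beside 41.4% of all tested genes. Relative to the 13 mitochondrial genes 5 of 7 were, beside 17.1%. The called ND genes were *mt-nd5* (-0.68 ± 0.11, edgeR adjusted p = 6.54e-05) and *mt-nd4l* (-0.51 ± 0.095, edgeR adjusted p = 0.000295). The 6 genes had a median of 0.13 and the ND genes one of -0.23, beside -0.01 for all tested genes. Together the 6 genes took 75.9% and 75.7% of mitochondrial messenger counts in the controls and 82.1% and 81.5% in SYP-3343, without overlap (difference of the log2 ratio of the 6 to the 7 genes 0.52, exact permutation p = 0.333). The mean share of the 6 went from 75.8% to 81.8%, and that of *mt-co1* alone from 27.5% to 37.8%. The gain of *mt-co1* was thus larger than that of the 6 together. The shares of *mt-atp6* and *mt-atp8* fell, so the 6 genes did not gain as a set.

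The nuclear-encoded partners of these subunits were read from the same fit. Over all tested genes, that fit called 16.6% higher and 15.3% lower. For complex III, 5 of 9 tested nuclear genes rose and 0 fell, among them *CYC1* (0.48 ± 0.095, edgeR adjusted p = 0.000519), which encodes cytochrome c1, and *uqcrc2a* (0.55 ± 0.096), a core protein. Per count of nuclear complex III genes there were 2.14 and 2.09 *mt-cyb* counts in the controls and 1.97 and 2.09 in SYP-3343, a log2 difference of -0.06. For complex IV, 9 of 23 tested genes rose and 5 fell. The lowest adjusted p-values there belonged to *cox4i1l* (-2.78 ± 0.25), *COX7A2L* (0.75 ± 0.096), *cox6b1* (-0.86 ± 0.11) and *ndufa4b* (-0.67 ± 0.11). *cox4i1l* was a low-count gene, at 6.06 and 7.1 CPM in the controls and 1.17 and 0.745 CPM in SYP-3343. The 3 mitochondrial complex IV genes together had 6.11 and 6.49 counts per nuclear complex IV count in the controls and 6.94 and 6.76 in SYP-3343.

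Of the 3 complexes, complex V had the widest gap between mitochondrial and nuclear genes. Of its 20 tested nuclear genes, 5 rose, 0 fell and 15 were not called, beside 16.6% of all tested genes called higher and 15.3% lower. The median of the 20 genes was 0.22 with TMM. With library size alone it was -0.11, and 0 were called higher and 6 lower, beside 6.21% and 41.4% of all tested genes. Risers included *atp5mc3b* (0.53 ± 0.11, edgeR adjusted p = 0.000891), one of the genes for the c-ring subunit, and *atp5f1e* (0.39 ± 0.10, edgeR adjusted p = 0.00596), a subunit of the central stalk. The c-ring genes *ATP5MC3* (-0.13 ± 0.095) and *atp5mc1* (-0.12 ± 0.10) were not called. With library size alone both were called lower (edgeR adjusted p = 0.00051 and 0.000585). *mt-atp6* and *mt-atp8* together had 0.754 and 0.782 counts per nuclear complex V count in the controls and 0.385 and 0.418 in SYP-3343. That log2 ratio fell by 0.94, with no overlap between the groups (exact permutation p = 0.333, the smallest possible). The ratios of complexes III and IV differed by -0.06 and 0.12, also without overlap (exact permutation p = 0.333 for each). For complex III the groups nearly touched, at 2.0921 in control replicate 2 and 2.0916 in SYP-3343 replicate 2. Over the same scaling change, the call counts for complex III went from 5 higher and 0 lower to 0 higher and 3 lower, and those for complex IV from 9 higher to 1 higher, with 5 lower under both.

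**Figure D4:**
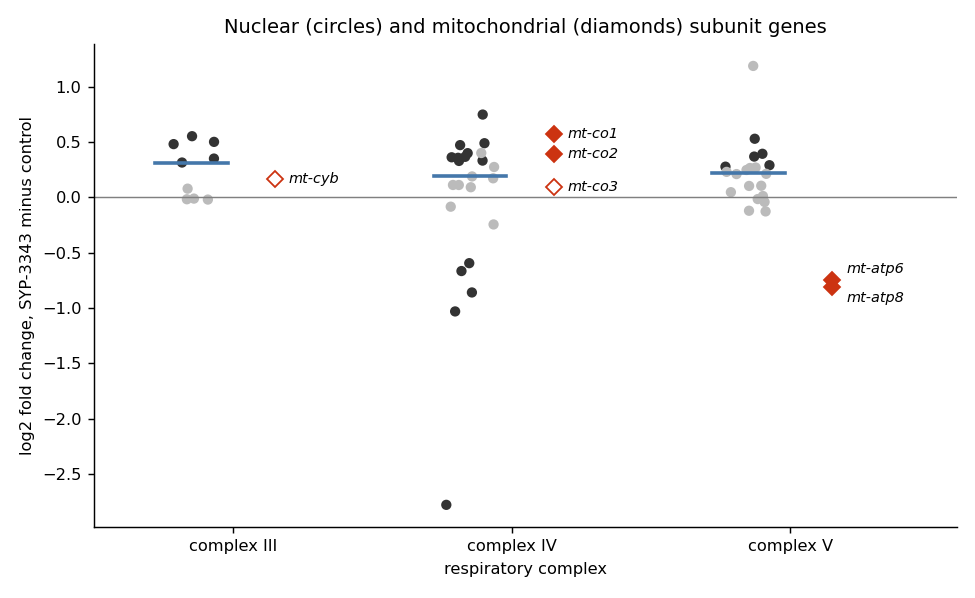
Log2 fold change of the nuclear genes listed for complexes III, IV and V (circles, dark where the adjusted p was under 0.05, blue line at the median) and of their mitochondrial subunit genes (red diamonds, filled where called). The complex V list also holds *atp5if1a* and *atp5if1b*, and *atp5if1b* (0.29) is among its genes called higher. The highest point of that list is *atp5if1a* (1.19, not called). It was at 20.9 and 0 CPM in control replicates 1 and 2, and at 21.9 and 23.1 CPM in SYP-3343 replicates 1 and 2. *mt-atp6* and *mt-atp8* lay at -0.75 and -0.81 below all 20 nuclear complex V genes, whose lowest value was -0.13.

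Assembly factors are the proteins that build these complexes. Beside the counts below, 16.6% of all tested genes were called higher and 15.3% lower. For complex IV, 7 of 25 tested assembly genes rose and 1 fell. Those with the lowest adjusted p were *higd1a* (1.64 ± 0.097), *cox17* (0.72 ± 0.099), a copper chaperone, *pet100* (1.04 ± 0.17) and *SCO2* (-1.07 ± 0.28), which delivers copper to the *mt-co2* product. The last 2 were low-count genes. *pet100* had 4.36 and 5.51 CPM in the controls and 11.5 and 8.87 CPM in SYP-3343. *SCO2* had 3.44 and 3.57 CPM in the controls and 1.08 and 2.28 CPM in SYP-3343. For complex V, 1 of 6 rose and 2 fell, and for complex III 4 of 8 rose and 0 fell. With library size alone these counts turned to 3 higher and 4 lower for complex IV, 0 and 5 for complex V, and 0 and 3 for complex III. That scaling called 6.21% of all tested genes higher and 41.4% lower. *TMEM242* (-0.54 ± 0.15, edgeR adjusted p = 0.00743), which in human cells takes part in ATP synthase assembly, was the complex V factor with the lowest adjusted p. Of the genes tested, *cycsb* (0.17 ± 0.098, edgeR adjusted p = 0.191), one of the genes for cytochrome c, was not called.

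Marker genes of tissues and nuclear genes for mitochondrial proteins were read from the same fit, beside 16.6% of all tested genes called higher and 15.3% lower. All 14 fast muscle genes, 10 of 11 heart genes and 6 of 7 yolk layer genes had counts in every library, and 1 heart gene was at 0 throughout. Fast muscle markers summed to 19905 and 20275 CPM in controls and to 25806 and 30281 CPM in SYP-3343, with 8 of 14 called higher and 4 lower. These 14 genes carry 7 names. All of the lower calls were genes named *TNNI2*, and other genes of that name were called higher. Heart markers summed to 224 to 232 CPM in controls and 252 to 259 CPM in SYP-3343 (3 of 10 tested called higher, 1 lower), and yolk layer markers to 10927 to 11298 and 11170 to 12399 CPM (0 of 6 higher, 2 lower). Nuclear genes for mitochondrial import, membrane and matrix proteins summed to 2539 to 2689 CPM in controls and 3598 to 3812 CPM in SYP-3343. Of these 18 genes 11 were called higher and 1 lower, and 33.3% had a log2 fold change below 0. *VDAC2* alone went from 645 and 626 CPM in controls to 1120 and 1193 CPM in SYP-3343. The RNA of these genes does not measure mitochondrial content itself. The balance of these calls depended on the scaling. With library size alone it was 3 higher and 6 lower for the nuclear genes for mitochondrial proteins (median 0.03 against 0.36 with TMM). It was 1 and 5 for fast muscle, 1 and 5 for heart, and 0 and 5 for the yolk layer. That scaling called 6.21% of all tested genes higher and 41.4% lower. The part of these marker differences in the results above was not tested.

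Genes with the most similar course over the 4 libraries were sought by Euclidean distance between centred log2 CPM profiles, among 5022 named genes with a mean log2 CPM of at least 5. Closest to the mean of *mt-atp8* and *mt-atp6* were *snap91b* (distance 0.0855), *ACSBG2* (0.0934) and *SFRP2* (0.117). *mt-nd5* ranked 10 and *mt-nd4l* 91 in that order. Closest to the sum of *mt-co1*, *mt-co2*, *mt-co3* and *mt-cyb* were *SNU13* (0.00605), *tmsb4x* (0.00984) and *HSPE1* (0.0236). With 4 libraries in 2 groups, such a distance mostly restates the size of the difference between the groups.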

How the data were processed

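Per the labels' protocols, RNA extracted with TRIzol was selected on poly-T beads before NEBNext Ultra library preparation. The deposited table holds the authors' whole-number read counts per gene, not normalized. The build GRCz11 and the tools featureCounts 1.6.2, DESeq2 1.14.1, HTSeq, HISAT2 and TopHat2 are named, without their roles, per the submitters' processing notes. Not given in the sources used here are the annotation, the strand setting and the treatment of reads on overlapping genes, so transcripts of the 2 mitochondrial strands cannot be told apart. Gene lengths of that build were not used here, so levels were not compared between genes. Mitochondrial rRNAs were not analysed here.

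All 4 libraries were tested in edgeR 4.0.16 (R 4.3.3): filterByExpr, TMM, the quasi-likelihood F test, two-sided, and Benjamini-Hochberg adjustment over all genes tested, with a threshold of 0.05. Symbols came from a table pairing identifiers with names (23607 of 25430 Ensembl identifiers matched); it spells several of the genes in capitals (*MT-CO1*). The code was tested on simulated data. The members and lists were chosen with earlier results of these data known. Beyond the 6 genes, up to 4 tested genes per list were named by smallest adjusted p. *ATP5MC3* and *atp5mc1* were named in addition, beside *atp5mc3b*. Alternatives were other scalings, filters, dispersion fits and tests (DESeq2 1.42.0, limma 3.58.1), a replicate block, and leaving out each library. The legacy quasi-likelihood fit was added after the data were seen. Where that left a single library in a group, its spread was taken from the other group.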

Additional observations from a re-analysis of the deposited data

How the results depend on the processing

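*mt-atp6* and *mt-atp8* kept their direction and their call in all 16 alternatives, with log2 fold changes from -1.09 to -0.62 and from -1.15 to -0.68. *mt-co1* kept its direction in all 16 and its call in 13. The 16 include the scaling to the 13 mitochondrial genes. The genes tested are part of that sum, so that fit is not a separate check. With the replicate number as a block, 0 members were called higher, as *mt-co1* (0.58, adjusted p = 0.231) and *mt-co2* (0.39, adjusted p = 0.233) lost their calls, while 2 members stayed called lower. The labels do not say that a number marks a shared clutch, and same-numbered libraries had deviations from their group means correlated at -0.097 across 10900 genes. The number of members called higher was 1 with RLE factors, upper-quartile factors, library size alone and a CPM of at least 1 in 2 libraries, and 0 at an adjusted p of 0.01. In those scalings and that filter the gene lost was *mt-co2*, at 0.40 (RLE, adjusted p = 0.0513), 0.32 (upper quartile, adjusted p = 0.0886), 0.057 (library size) and 0.39 (filter, adjusted p = 0.0619). Leaving out each library in turn gave 0 to 2 members called higher and 2 lower, with *mt-co1* from 0.51 to 0.64, *mt-co2* from 0.30 to 0.49 and *mt-co3* from -0.040 to 0.22. *mt-co3* turned to -0.24 with library size alone, to -0.040 without SYP-3343 replicate 2 and to -0.022 when scaled to the 13 mitochondrial genes, and *mt-cyb* turned to -0.17 with library size alone. Over all genes, 3770 were called higher and 3455 lower. Library size alone gave 1406 and 9382, and upper-quartile factors 3042 and 4462. An adjusted p of 0.01 left 2039 lower, and DESeq2 called 3139 higher and 2360 lower. Among nuclear genes, library size alone gave 0 higher and 3 lower for complex III, 1 higher for complex IV, and 0 higher and 6 lower for complex V. The log2 ratio of the share of *mt-cyb* went from 0.050 to 0.023 without *mt-nd5* in the sum. Of the shifts other than those built into a scaling or fewer samples, the cause was not tested. With 2 libraries per group, exact tests over libraries cannot go below p = 0.333.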

Other observations

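Genes for the transcription and copying of mitochondrial DNA were called in both directions: 3 of 18 tested rose and 2 fell, with a median log2 fold change of 0.01, beside 3770 higher and 3455 lower of 22647 genes and a median of -0.01. *mterf3* (0.75 ± 0.14, edgeR adjusted p = 0.000327), known in mice as a repressor of mitochondrial transcription, *MTERF4* (0.80 ± 0.18) and *tfb2m* (0.44 ± 0.098), which starts transcription with the mitochondrial RNA polymerase, rose. The nuclease gene *MGME1* (-0.78 ± 0.20, edgeR adjusted p = 0.00525) fell. *MTERF4* (4.48 and 3.79 CPM in the controls) and *MGME1* (5.42 and 4.64 CPM in the controls) were low-count genes. With library size alone 2 of these 18 genes were called higher and 8 lower, beside 6.21% and 41.4% of all tested genes.

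Of 26 tested genes for processing, tailing and decay of mitochondrial RNA, 6 rose and 1 fell, with a median of 0.03. The risers with the lowest adjusted p were *fastkd2* (0.60 ± 0.11, edgeR adjusted p = 0.000289), *SUPV3L1* (0.44 ± 0.11), a helicase of the mitochondrial RNA-degrading complex, and *FASTKD1* (0.44 ± 0.12). *PDE12* (-0.58 ± 0.13, edgeR adjusted p = 0.00162), whose product removes poly-A tails from mitochondrial RNA in human cells, fell. With library size alone 0 of the 26 were called higher and 9 lower, beside 6.21% and 41.4% of all tested genes. With TMM the shares of all tested genes were 16.6% and 15.3%.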
